A study of Mus musculus with 4 samples.

Results

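The genes described here encode the proteins of the cytosolic ribosome, in connective tissue cells sorted from mouse limbs at E13.5. They were chosen by gene symbol, as every symbol that starts with Rpl or Rps and goes on with a protein number, with or without a short suffix, together with *Rplp0*, *Rplp1*, *Rplp2* and *Rpsa*. Symbols of pseudogenes were left out. The rule took 83 of the 23284 genes in the count files, of which 51 belong to the large subunit by name and 32 to the small subunit. No measured value entered the rule.

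RNA was sequenced from 4 embryos of the C57BL/6J strain, 2 of them *Osr1* GCE/+ and 2 *Osr1* GCE/GCE. In the GCE allele an eGFP-IRES-CreERt2 cassette is knocked into *Osr1*, which encodes a zinc finger transcription factor, so that GFP marks cells in which the *Osr1* locus is active. Limbs were digested with collagenase and live GFP+ cells were collected by FACS, with propidium iodide to leave out dead cells. The GCE/+ controls are heterozygous and also carry 1 GCE allele, and no wild-type embryo was among the 4 samples. The comparison addresses how the transcriptome of these cells differs when both *Osr1* alleles are disrupted. The 2 samples of a genotype are the replicates, so p-values set a difference against the spread between embryos of a genotype. The tests estimate that spread partly from other genes, so it is not the spread of each gene's own values alone. With 2 against 2 samples an exact two-sided permutation test of a single value cannot go below p = 0.333, so that no such test was run.

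Total counts per sample ran from 52121596 to 61402140, and 3 counts amounted to between 0.0489 and 0.0576 CPM. CPM, a gene's counts scaled to a common library size, were taken over the library size after TMM normalization and are not corrected for transcript length. *Osr1* (chromosome 12, 9570116 to 9581500, plus strand, GRCm38) had 81.9 and 79.1 CPM in GCE/+ replicates 1 and 2, and 11.9 and 13.9 CPM in GCE/GCE replicates 1 and 2, the direction that the labels give. *Xist*, the RNA that silences one X chromosome in female cells, had 1142 CPM in GCE/GCE replicate 1 and between 0.572 and 2.63 CPM in the other embryos. Markers of connective tissue were high in every embryo, with a summed level of 7 genes between 12380 and 16510 CPM.

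A ribosome is made of a large and a small subunit, each of them a core of ribosomal RNA covered by proteins that are mostly present in a single copy. Cells that grow and divide spend much of their transcription on these proteins, and their mRNAs are short and abundant. Most of these mRNAs begin with a stretch of pyrimidines, the 5′ terminal oligopyrimidine (TOP) motif, through which mTOR signalling and the RNA-binding protein Larp1 adjust their translation together. Control of that kind acts on how mRNAs are used by ribosomes and is not measured by counts of mRNA.

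The start sites of some of these genes are shown because the promoter and first bases are what the family is known to share, and because their mRNAs were found to move together between embryos. The windows were read from the RefSeq promoter table (GRCm38.p6), which held 75 windows for 63 of the 83 genes. Each run below is written 5′ to 3′ on the gene's own strand and spans 40 bases before the start and 20 bases from it on, and capitals mark an unbroken run of C or T of at least 6 bases that reaches to within 5 bases of the start. *Rps6* (chr4:86857348-86857407, minus strand), *Rpl38* (chr11:114668540-114668599, plus strand), *Rpl7a* (chr2:26910767-26910826, plus strand), *Rplp2* (chr7:141447611-141447670, plus strand) and the paralogue gene *Rpl22l1* (chr3:28805468-28805527, plus strand) have such a run.
Rps6: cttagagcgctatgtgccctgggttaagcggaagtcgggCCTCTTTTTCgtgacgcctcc
Rpl38: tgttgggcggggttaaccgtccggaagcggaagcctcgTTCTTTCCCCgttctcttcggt
Rpl7a: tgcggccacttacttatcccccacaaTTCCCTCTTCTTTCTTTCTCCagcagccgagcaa
Rplp2: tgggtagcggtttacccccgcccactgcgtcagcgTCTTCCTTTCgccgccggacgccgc
Rpl22l1: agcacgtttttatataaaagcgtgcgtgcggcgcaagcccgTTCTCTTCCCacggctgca
*Rplp0* (chr5:115559427-115559486, plus strand), *Rps4x* (chrX:102189372-102189431, minus strand) and *Rpl7l1* (chr17:46782637-46782696, minus strand) have no such run that reaches to within 5 bases of the given start.
Rplp0: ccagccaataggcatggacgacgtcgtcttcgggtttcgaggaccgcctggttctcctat
Rps4x: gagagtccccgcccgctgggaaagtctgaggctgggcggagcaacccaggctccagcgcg
Rpl7l1: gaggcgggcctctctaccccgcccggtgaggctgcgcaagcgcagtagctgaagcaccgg

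A C or T run at the start was found in 44.0% of the 75 windows of ribosomal protein genes and in 21.0% of the 32851 windows in the table. The reverse, a run of A or G of the same length at the start, was found in 9.3% and 22.9%. Over the full windows of 300 bases, from 250 before to 50 after the start, and on both strands, the letters CCGGAAG, the core that ETS factors such as GABP bind, were in 36.0% of the ribosomal protein windows and in 8.9% of all. AAGATGGC, the core of the YY1 motif, was in 10.7% and 2.7%, and TATAAA was in 9.3% and 13.6%. These are matches of letters, and windows of the same gene can overlap. A gene without a match is only a gene whose given window lacks these letters, since annotated starts can lie some bases away from the start in use.

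The share of counts in ribosomal protein genes differed between the genotypes by less than it did between embryos of the same genotype. The 83 genes summed to 4.809% and 3.967% of all counts in GCE/+ replicates 1 and 2, a mean of 4.388% ± 0.595 (SD, n = 2). In GCE/GCE replicates 1 and 2 they summed to 4.215% and 4.66%, a mean of 4.438% ± 0.315 (SD, n = 2). Both GCE/GCE values lay between the GCE/+ values, and the log2 ratio of the means, GCE/GCE over GCE/+, was 0.016. Between embryos of the same genotype the share differed more, by a factor of 1.21 in GCE/+ (replicate 1 over 2) and of 1.11 in GCE/GCE (replicate 2 over 1). Leaving out 1 library at a time moved the log2 ratio of the means to between -0.116, without GCE/+ replicate 2, and 0.162, without GCE/+ replicate 1.

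Each subunit was also summed on its own. Genes of the large subunit took 2.793% and 2.325% in GCE/+ and 2.466% and 2.719% in GCE/GCE cells. Genes of the small subunit took 2.016% and 1.641% in GCE/+ and 1.749% and 1.942% in GCE/GCE cells. In each subunit GCE/+ replicate 1 had the highest share and GCE/+ replicate 2 the lowest.

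**Figure D1:**
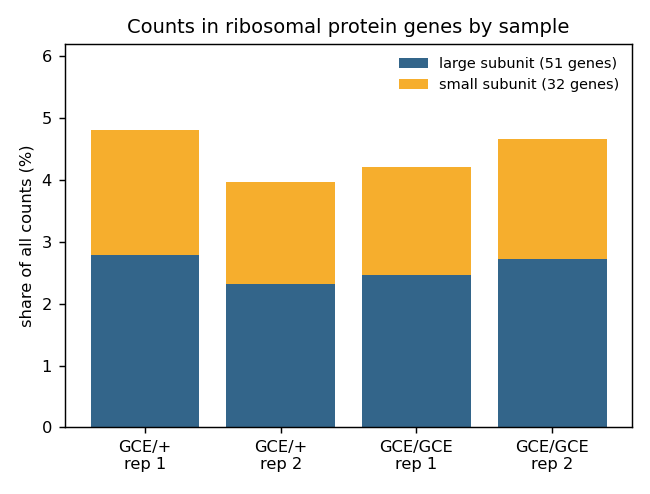
Share of all counts (%) taken by ribosomal protein genes in each of the 4 embryos, split into 51 large-subunit and 32 small-subunit genes. Bars start at 0 and stack the large-subunit genes under the small-subunit genes, 1 bar for each embryo. The shares of all 83 genes were 4.809% and 3.967% in GCE/+ and 4.215% and 4.66% in GCE/GCE cells, so that the GCE/GCE embryos lie between the GCE/+ embryos.

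Gene by gene, no ribosomal protein gene passed the test between the genotypes. Of the 83 genes, 81 had enough counts to be tested, and 0 of them had an adjusted p under 0.1 by the quasi-likelihood test of edgeR, Benjamini-Hochberg adjusted over all 15645 tested genes, where 285 genes (1.82%) were called, 0.895% as higher and 0.927% as lower in GCE/GCE cells. None of the 81 had an unadjusted p under 0.05, which 10.5% of all tested genes had. DESeq2 also called 0 of them and found 0 with an unadjusted p under 0.05, while it called 3.45% of the genes to which it gave an adjusted p. The lowest adjusted p among the 81 in edgeR's quasi-likelihood test was 0.742.

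The log2 fold change, GCE/GCE over GCE/+, was positive in 58 and negative in 23 of the 81 genes, with a median of 0.026 beside 0.003 over all tested genes. In the large subunit it was positive in 36 of 49 and the median was 0.034, and in the small subunit it was positive in 22 of 32 and the median was 0.022. The sign of the median turned with the library left out: it was 0.16 without GCE/+ replicate 1 and 0.10 without GCE/GCE replicate 1, but -0.11 without GCE/+ replicate 2 and -0.051 without GCE/GCE replicate 2, and 0 genes were called in each case. Under upper quartile normalization the median was 0.007 and under library size alone 0.012, where all tested genes had medians of -0.014 and -0.010.

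The precision of these values limits what a difference could have been. Among the 76 tested genes whose mean reached 10 CPM, the log2 fold change ran from -0.12 in *Rpl31* to 0.13 in *Rps15a*, with standard errors from 0.082 to 0.20 and a median of 0.12. The 95% intervals of these genes reached from -0.52 at the lowest bound to 0.55 at the highest. Of the 81 intervals, 81 contained 0, 78 lay inside a 1.5-fold change in either direction and 38 inside a 1.25-fold change. The intervals cover the spread between the embryos of a genotype as edgeR estimated it over all genes.

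**Figure D2:**
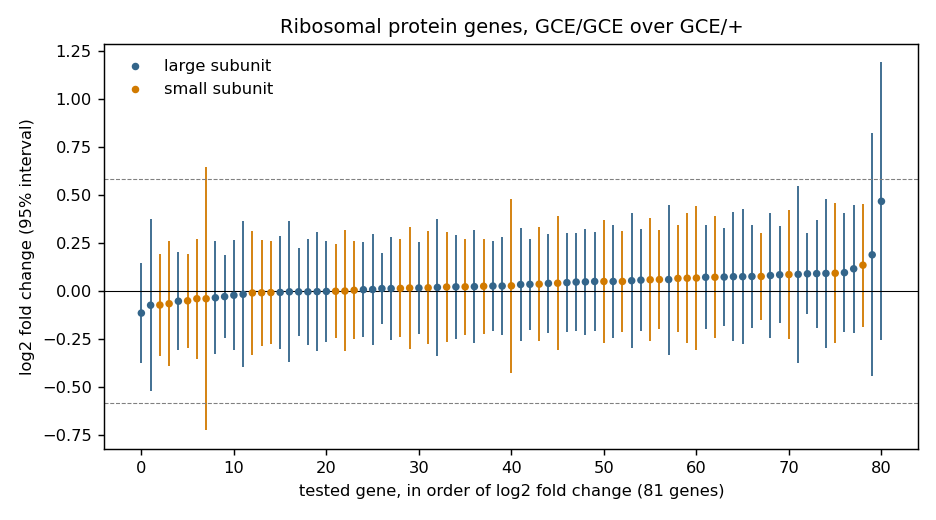
Log2 fold change (vertical axis, GCE/GCE over GCE/+) of each tested ribosomal protein gene, in order of size, as points with 95% intervals as bars. Every one of the 81 intervals contains 0, and the widest belong to genes of low level such as *Rpl39l*, with 0.47 and an interval from -0.26 to 1.19.

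The 5 genes with the most positive log2 fold changes at 10 CPM or more were *Rps15a*, *Rpl39*, *Rpl32*, *Rps12* and *Rpl5*. *Rps15a*, which encodes a small-subunit protein, had 471.9 and 387.5 CPM in GCE/+ and 414.3 and 529 CPM in GCE/GCE cells (log2 fold change 0.13, SE 0.14). *Rps12*, another small-subunit gene, had 763.1 and 555.7 CPM in GCE/+ and 637.2 and 768.2 CPM in GCE/GCE cells (0.092, SE 0.16). *Rpl32*, of the large subunit, had 473.8 and 363 CPM in GCE/+ and 417.4 and 476.5 CPM in GCE/GCE cells (0.095, SE 0.14). In these 3 genes the GCE/GCE embryos were one above and one below the mean of the GCE/+ embryos, and the embryos of the 2 genotypes overlapped.

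The 5 genes with the most negative values were *Rpl31*, *Rpl36*, *Rps2*, *Rps21* and *Rpl8*. *Rpl31* had 615.5 and 503.5 CPM in GCE/+ and 505.5 and 527 CPM in GCE/GCE cells (log2 fold change -0.12, SE 0.11). *Rps2*, whose protein lies near the mRNA entry channel, had 943.5 and 787.4 CPM in GCE/+ and 836.2 and 807.9 CPM in GCE/GCE cells (-0.074, SE 0.12). *Rps21* had 265.1 and 196.8 CPM in GCE/+ and 202.5 and 238.4 CPM in GCE/GCE cells (-0.067, SE 0.14). *Rpl8*, whose protein lies close to the peptidyl transferase centre, had 837.5 and 734.9 CPM in GCE/+ and 720.4 and 794.6 CPM in GCE/GCE cells (-0.054, SE 0.11). Both GCE/GCE embryos lay between the GCE/+ embryos in *Rpl31*, *Rps2* and *Rps21*, and in *Rpl8* 1 of them lay below both.

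*Rpl36* stood out by its spread within the mutants. It had 183.6 and 135.4 CPM in GCE/+ and 120.5 and 182.4 CPM in GCE/GCE cells. The GCE/GCE embryos thus differed by 0.60 on the log2 scale, beside a log2 fold change of -0.075 (SE 0.20) between the genotypes. GCE/GCE replicate 1 was the lowest of the 4 embryos for this gene.

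The pattern that the ribosomal protein genes shared was a difference between embryos of the same genotype. GCE/+ replicate 1 was above replicate 2 in 78 of the 81 tested genes, beside 50.3% of all tested genes. GCE/GCE replicate 2 was above replicate 1 in 77 of the 81, beside 50.2%. Both held together in 74 genes. The median log2 difference, replicate 2 over replicate 1, was -0.28 in GCE/+ and 0.16 in GCE/GCE cells, where all tested genes had -0.002 and 0.001. The log2 difference between the GCE/+ embryos was larger in size than the log2 fold change between genotypes in 75 of the 76 genes at 10 CPM or more. How often this held over all tested genes was not counted. A difference between 2 single embryos varies more than one between means of 2, so this count does not set the family apart.

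The values of GCE/GCE cells often lay inside the range of GCE/+ cells. In 50 of the 81 genes both GCE/GCE values were between the GCE/+ values, which was so in 18.6% of all tested genes. In 0 of the 81 were both GCE/GCE values above both GCE/+ values (19.2% of all tested genes), and in 0 were both below (19.1%). Among the 76 genes at 10 CPM or more, GCE/+ replicate 1 was the highest of the 4 embryos in 52 and GCE/GCE replicate 2 in 24, while GCE/+ replicate 2 was the lowest in 72 and GCE/GCE replicate 1 in 4. In 46 of them the order was GCE/+ replicate 1, GCE/GCE replicate 2, GCE/GCE replicate 1 and GCE/+ replicate 2, from high to low.

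Most of this spread was common to the family. On the log2 scale the median deviation from a gene's own mean over the embryos was 0.13 in GCE/+ replicate 1, -0.16 in GCE/+ replicate 2, -0.060 in GCE/GCE replicate 1 and 0.091 in GCE/GCE replicate 2. The median SD over the 4 embryos was 0.14 for a gene at 10 CPM or more, and 0.061 after the median deviation of each embryo was subtracted. After that step the genes with the largest SD were *Rpl36* (0.20), *Rpl22l1* (0.19), *Rps27l* (0.17), *Rplp2* (0.14) and *Rpl7l1* (0.13). *Rpl7l1* was there for the opposite reason to the others, since its SD was 0.047 before the step: it did not follow the family, with 96.01 and 98.13 CPM in GCE/+ and 94.18 and 101.6 CPM in GCE/GCE cells.

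**Figure D3:**
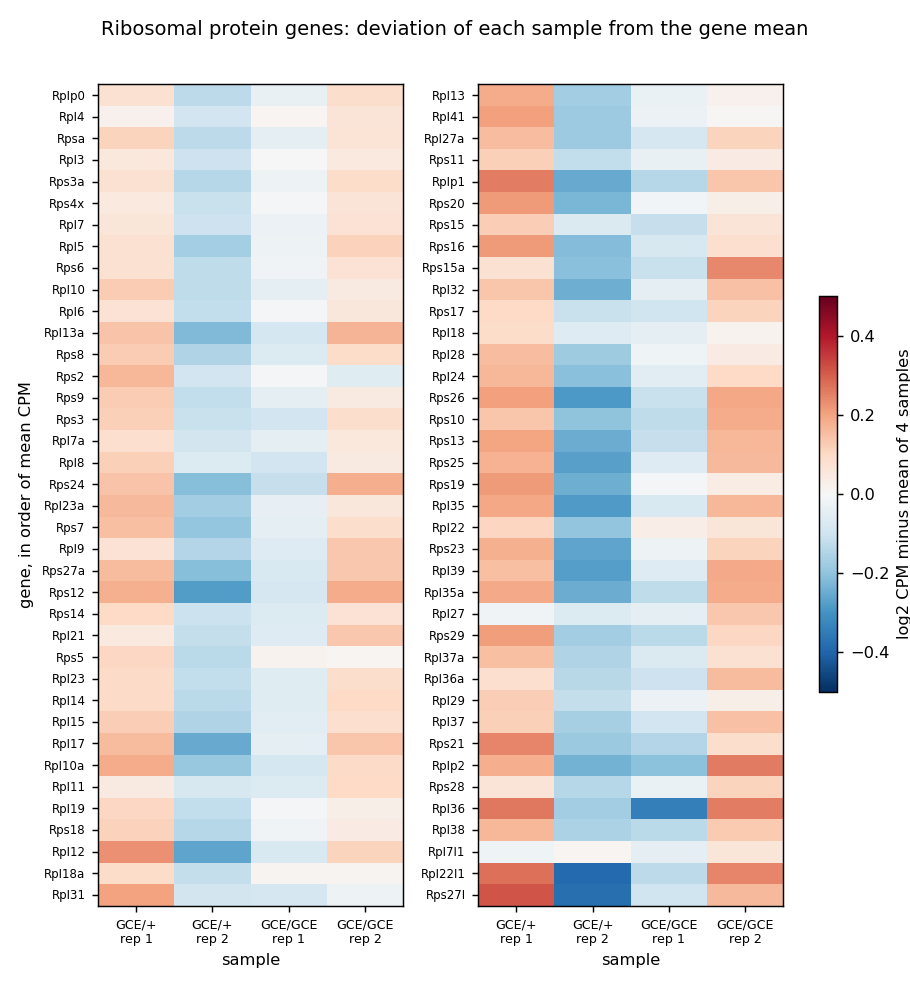
Log2 deviation of each ribosomal protein gene of at least 10 CPM from its own mean over the 4 embryos, as a heat map with 1 row for each of the 76 genes, from high to low mean CPM, and 1 column for each embryo (red above the mean, blue below). The medians are 0.13 and -0.16 in GCE/+ replicates 1 and 2 and -0.060 and 0.091 in GCE/GCE replicates 1 and 2, so that the columns of the same genotype have opposite colours.

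The difference between embryos was larger for genes with a short coding sequence. The coding sequences of the 83 genes run from 75 to 1257 nt with a median of 456 nt. In the 24 genes at 10 CPM or more with fewer than 400 coding nt, the median log2 difference, replicate 2 over replicate 1, was -0.42 in GCE/+ and 0.26 in GCE/GCE cells. In 29 genes from 400 to under 600 nt these medians were -0.26 and 0.16, and in 23 genes of 600 nt or more they were -0.23 and 0.11. Across the 76 genes, which share libraries and are not independent replicates, Spearman's rho of coding length with the difference was 0.58 in GCE/+ and -0.50 in GCE/GCE cells. With annotated transcript length in place of coding length, the rho in GCE/+ was lower, at 0.33. The log2 fold change between genotypes had medians of 0.054, 0.022 and 0.024 in the 3 length classes and a rho of -0.023 with coding length.

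The same direction was seen in other short transcripts, to a smaller extent. Annotated transcripts of ribosomal protein genes had a median length of 780 nt, beside 2886 nt over all tested genes. Among transcripts of 500 to under 1000 nt, 46 ribosomal protein genes had a median log2 difference of -0.29 in GCE/+ and 0.14 in GCE/GCE cells, and 884 other genes had -0.18 and 0.075. Among transcripts of 1000 to under 2000 nt, 20 ribosomal protein genes had -0.22 and 0.14, and 3390 other genes had -0.11 and 0.028. At 4000 nt or more, 4576 other genes had the opposite signs, 0.12 and -0.029. Whether ribosomal protein genes differ from other genes of their length was not tested.

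The fold change between genotypes also ran with transcript length over all genes. Across 15470 tested genes with a length, Spearman's rho of length with the log2 fold change was 0.24, with the difference between GCE/+ embryos 0.46 and with that between GCE/GCE embryos -0.17. In transcripts of 500 to under 1000 nt the median log2 fold change was -0.034 in the 884 other genes and 0.034 in ribosomal protein genes, and in those of 1000 to under 2000 nt it was -0.048 and 0.032. With an offset for the trend on length in the fit, the median over ribosomal protein genes became 0.069, with 73 of 81 positive, and 0 were called. The part of transcript length in the differences between the embryos was not tested.

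**Figure D4:**
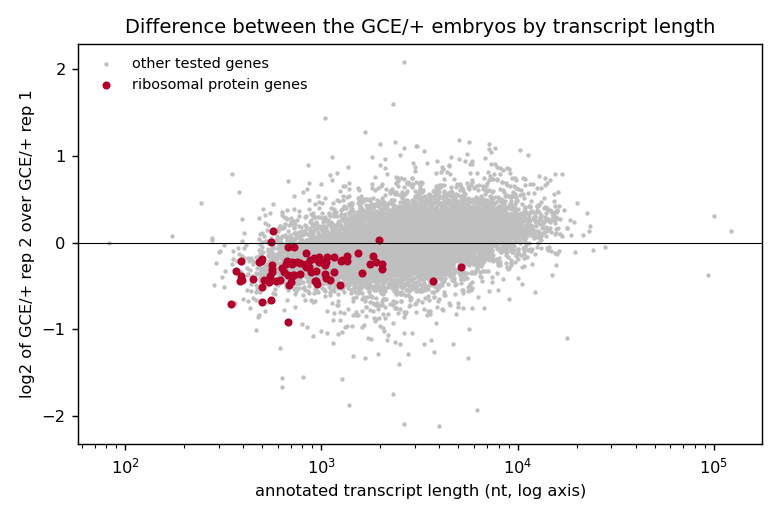
Log2 difference between the GCE/+ embryos (replicate 2 over replicate 1, vertical axis) against annotated transcript length in nt (log axis), with ribosomal protein genes in red and all other tested genes in grey. Most red points lie below 0, with a median of -0.28, and the grey points run from below 0 at short lengths, with a median of -0.18 from 500 to under 1000 nt, to above 0 at 4000 nt or more, with a median of 0.12.

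Genes were also grouped by their start sites. The 29 genes at 10 CPM or more with a C or T run at a given start had median log2 differences of -0.33 between GCE/+ embryos and 0.18 between GCE/GCE embryos, and a median log2 fold change of 0.026. The 28 with a window but no run had -0.25 and 0.15, and a fold change of 0.038. The 19 with no window had -0.24 and 0.14, and a fold change of 0.013. Among the genes printed above with a run, the difference between GCE/+ embryos was -0.20 in *Rps6*, -0.32 in *Rpl38*, -0.17 in *Rpl7a*, -0.42 in *Rplp2* and -0.66 in *Rpl22l1*. Among those printed without one it was -0.21 in *Rplp0*, -0.16 in *Rps4x* and 0.031 in *Rpl7l1*, so that the values of genes with and without a run overlapped.

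Levels between genes are given per kilobase of coding sequence, in the mean of the 2 GCE/+ embryos. The median over the ribosomal protein genes was 1030 CPM per coding kb, with 986 in the large and 1100 in the small subunit. *Rpl41*, which encodes the shortest of the proteins, led with 7086 CPM per coding kb, and with its 75 coding nt it is the gene for which division by length is least certain. It was followed by *Rpl39* (1896), *Rps24* (1836), *Rps29* (1760), *Rps12* (1665) and *Rplp0* (1659). The counts cover whole transcripts, so wherever this measure is used, genes with long untranslated parts come out higher. *Rpl39* has 153 coding nt in an annotated transcript of 612 nt, and *Rps24* has 399 in 1613 nt. The order is therefore not a ranking of transcript numbers. By CPM, 73 of the 83 genes had at least 100 CPM and 7 had under 10 CPM.

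The 5 genes with the highest CPM in GCE/+ cells were *Rplp0*, *Rpl4*, *Rpsa*, *Rpl3* and *Rps4x*. *Rplp0*, the base of the stalk that recruits elongation factors, had 1691 and 1464 CPM in GCE/+ and 1563 and 1702 CPM in GCE/GCE cells. *Rpl4*, whose protein lines the exit tunnel of the nascent chain, had 1523 and 1405 CPM in GCE/+ and 1513 and 1572 CPM in GCE/GCE cells. *Rpl3*, near the peptidyl transferase centre, had 1260 and 1133 CPM in GCE/+ and 1217 and 1258 CPM in GCE/GCE cells. In each of the 3 genes GCE/+ replicate 2 was the lowest embryo.

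The stalk of the large subunit is completed by the acidic proteins of *Rplp1* and *Rplp2*, and their mRNAs spread more between embryos than that of *Rplp0*. *Rplp1* had 557 and 391.4 CPM in GCE/+ and 422.7 and 514 CPM in GCE/GCE cells. *Rplp2* had 228.3 and 170.7 CPM in GCE/+ and 174.7 and 240.9 CPM in GCE/GCE cells. Their coding sequences have 342 and 345 nt and that of *Rplp0* has 951 nt. *Rpsa*, a small-subunit protein also known as the 67 kDa laminin receptor precursor, had 1510 and 1275 CPM in GCE/+ and 1351 and 1465 CPM in GCE/GCE cells. The log2 fold changes of these genes lay between -0.018 in *Rplp1* (SE 0.17) and 0.059 in *Rplp2* (SE 0.17).

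Several ribosomal proteins have been given roles beyond the bulk of protein synthesis. *Rpl5* and *Rpl11*, whose proteins bind Mdm2 and hold back the degradation of p53 when ribosome assembly fails, had log2 fold changes of 0.090 (SE 0.12) and 0.034 (SE 0.10). *Rpl5* had 1058 and 892 CPM in GCE/+ and 987.1 and 1088 CPM in GCE/GCE cells. *Rpl11* had 598.6 and 549 CPM in GCE/+ and 553.3 and 621.4 CPM in GCE/GCE cells. For both genes the highest embryo was GCE/GCE replicate 2 and the lowest GCE/+ replicate 2.

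*Rps6*, whose protein is the classical substrate of S6 kinase, had 1036 and 898.6 CPM in GCE/+ and 969.3 and 1032 CPM in GCE/GCE cells. *Rpl38*, mutated in a mouse with defects of skeletal patterning, had 154.8 and 123.6 CPM in GCE/+ and 125.6 and 151.2 CPM in GCE/GCE cells. *Rps19*, the gene most often mutated in Diamond-Blackfan anaemia, had 411.1 and 300.0 CPM in GCE/+ and 354 and 364.4 CPM in GCE/GCE cells. Both GCE/GCE embryos lay between the GCE/+ embryos for all 3 genes. *Rps27a*, translated as a fusion with ubiquitin, had 777.5 and 601.7 CPM in GCE/+ and 661.2 and 765.6 CPM in GCE/GCE cells, in the same order.

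Of the family 4 genes are X-linked, *Rpl10*, *Rpl36a*, *Rpl39* and *Rps4x*, and they were looked at because 1 of the 4 embryos had *Xist*. *Rpl10* had 1051 and 879.4 CPM in GCE/+ and 932.9 and 990.6 CPM in GCE/GCE cells. *Rps4x* had 1167 and 1044 CPM in GCE/+ and 1124 and 1179 CPM in GCE/GCE cells. *Rpl39* had 332.7 and 247.6 CPM in GCE/+ and 286.4 and 342.1 CPM in GCE/GCE cells. GCE/GCE replicate 1, the embryo with *Xist*, was neither the highest nor the lowest in any of these 3. *Rpl36a* had 287.9 and 246.8 CPM in GCE/+ and 252.5 and 303.2 CPM in GCE/GCE cells, and that embryo was again between the others.

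Paralogues of ribosomal proteins, which arose by duplication and are often restricted to some tissues, were low beside their parent genes, apart from *Rps27l*, which exceeded the few counts of *Rps27* in every embryo. Per coding kb, *Rpl22l1* stood at 25.6% and 19.9% of *Rpl22* in GCE/+ and at 20.3% and 25.8% in GCE/GCE cells. *Rpl7l1* stood at 9.64% and 11.0% of *Rpl7* in GCE/+ and at 10.1% and 10.1% in GCE/GCE cells. *Rpl39l*, known mainly from the testis, stood at 1.06% and 0.656% of *Rpl39* in GCE/+ and at 1.35% and 0.965% in GCE/GCE cells. *Rpl3l* (6 and 0 counts in GCE/+, 5 and 2 in GCE/GCE) and *Rpl10l* (0 and 0, then 1 and 0 counts) were the 2 genes not tested. Counts of these last genes were near or under 3 per library, so no difference was detectable at this depth.

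*Rpl22l1* and *Rps27l* had the widest gaps between GCE/+ embryos among the 76 genes at 10 CPM or more. *Rpl22l1* had 86.88 and 54.79 CPM in GCE/+ and 65.41 and 84.95 CPM in GCE/GCE cells. *Rps27l*, a known p53 target, had 46.49 and 28.82 CPM in GCE/+ and 34.85 and 41.85 CPM in GCE/GCE cells. Their log2 differences between GCE/+ embryos were -0.66 and -0.68, while their log2 fold changes between genotypes were 0.086 (SE 0.20) and 0.026 (SE 0.20). *Rpl39l* had the largest log2 fold change of the 81 genes, from 3.515 and 1.626 CPM in GCE/+ to 3.876 and 3.3 CPM in GCE/GCE cells, and did not pass the test.

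A few core ribosomal proteins had counts far below the rest of the family. *Rps27* had 2.71 and 1.473 CPM in GCE/+ and 1.792 and 2.303 CPM in GCE/GCE cells. *Rpl26* had between 0.982 and 1.454 CPM, *Rpl34* between 4.996 and 5.799 CPM and *Rpl30* between 7.338 and 9.834 CPM in the 4 embryos. Each of these proteins is a regular part of the ribosome. *Rpl34-ps1*, listed as a pseudogene and left out by the rule, had 120.4 and 112.5 CPM in GCE/+ and 113 and 166.3 CPM in GCE/GCE cells.

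Sequence shared with other annotated genes was measured because retroposed copies of ribosomal protein genes are spread over the mouse genome. Of the stretches of 50 nt in a gene's transcript, the length of a read, a median of 57.4% also occurred in the transcripts of other genes, and the share passed 50% in 52 of the 83 genes. It was 98.6% in *Rps27*, 76.4% in *Rpl30*, 71.3% in *Rpl26* and 50.6% in *Rpl34*. Across the 83 genes its Spearman's rho with CPM per coding kb was -0.042. How reads with several possible positions were counted is not given in the sources used here, so the level of each gene with shared sequence is uncertain, and the part of shared sequence in the low values was not tested.

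Genes around the ribosomal proteins were described from lists of other parts of the same machinery. *Fau*, a ribosomal protein gene whose symbol the rule did not take and whose protein is made as a fusion with a ubiquitin-like protein, had 386 and 303.3 CPM in GCE/+ and 318.3 and 350.3 CPM in GCE/GCE cells. The embryos stood in the order seen in 46 of the 76 genes above, with a log2 fold change of -0.044 (SE 0.12).

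Translation factors and other mRNAs of the TOP type were described next, and 0 of 18 were called, with 14 positive and 4 negative log2 fold changes and a median of 0.024. *Eef1a1*, the factor that brings aminoacyl-tRNA to the ribosome, had 9562 and 8732 CPM in GCE/+ and 9336 and 9576 CPM in GCE/GCE cells. *Eef2*, which drives translocation, had 2660 and 2683 CPM in GCE/+ and 2844 and 2677 CPM in GCE/GCE cells. *Tpt1* had 2161 and 1694 CPM in GCE/+ and 1854 and 2024 CPM in GCE/GCE cells. *Tpt1* followed the order of the ribosomal protein genes, and *Eef2* did not.

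Genes of ribosome assembly showed little of the gap between embryos. Of 33, 0 were called. The log2 fold change had a median of -0.023, and the median log2 differences were -0.016 between GCE/+ and 0.007 between GCE/GCE embryos. *Ncl*, which encodes nucleolin, had 954.3 and 997.6 CPM in GCE/+ and 977 and 999.1 CPM in GCE/GCE cells. Their median transcript length was 2664 nt.

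In genes that control the synthesis of ribosomal proteins the log2 fold change had a median of 0.062, and 0 of 15 were called. *Larp1*, which binds TOP mRNAs, had 206.4 and 237 CPM in GCE/+ and 253.6 and 224 CPM in GCE/GCE cells. *Myc*, an activator of ribosome production, had 86.32 and 78.18 CPM in GCE/+ and 101 and 90.08 CPM in GCE/GCE cells, with an adjusted p of 0.472 in edgeR's quasi-likelihood test. *Larp1* and *Myc* are named here after their values were seen. Of the 11 targets of p53, which rise when ribosome assembly is disturbed, 0 were called, beside 1.82% of all tested genes. Their log2 fold changes were positive in 3 and negative in 8, with a median of -0.037. They ran from -0.38 in *Phlda3* (SE 0.13) to 0.34 in *Trp53inp1* (SE 0.11). *Mdm2*, the target with the highest CPM, had between 123.8 and 126.6 CPM in the 4 embryos.

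Other families of short transcripts had the gap as well. Mitochondrial ribosomal proteins had median log2 differences of -0.17 between GCE/+ and 0.12 between GCE/GCE embryos, and nuclear genes of the respiratory chain, taken by symbol, had -0.22 and 0.15. Their median log2 fold changes between genotypes were -0.027 over 76 genes and -0.018 over 83 genes, and 0 were called in either list. The 7 host genes of small nucleolar RNAs, several of which are non-coding RNAs with TOP starts, had -0.46 and 0.17. GCE/+ replicate 1 was above replicate 2 in all 7, but GCE/GCE replicate 2 was above replicate 1 in only 4. Among the 7 host genes *Gas5*, the one with the highest CPM, had 181.4 and 154.3 CPM in GCE/+ and 164.6 and 185.5 CPM in GCE/GCE cells. Of the 7, 0 were called.

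**Figure D5:**
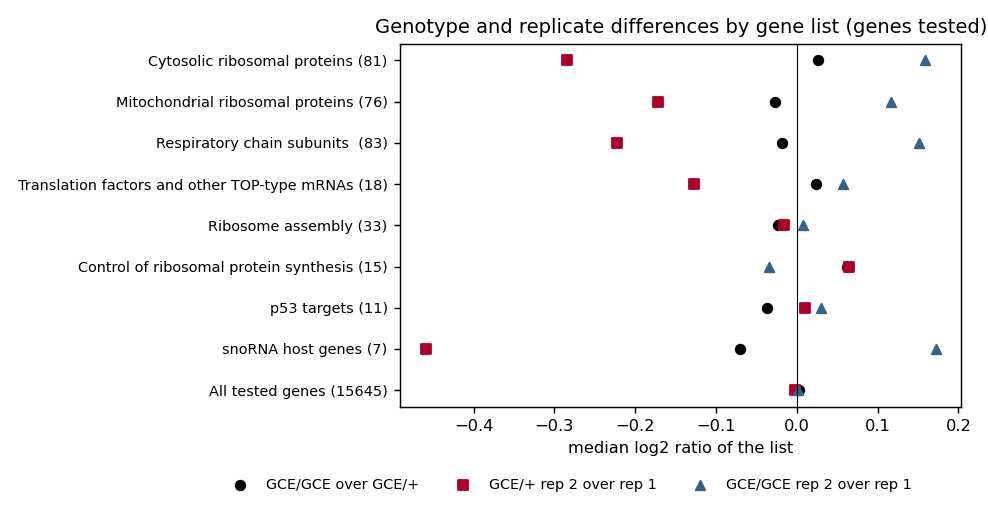
Median log2 difference between embryos of each genotype (replicate 2 over replicate 1) and median log2 fold change between genotypes, for ribosomal protein genes and the related gene lists. Ribosomal protein genes, with medians of -0.28 and 0.16 between embryos and 0.026 between genotypes, lie near the respiratory chain genes (-0.22, 0.15 and -0.018), and the ribosome assembly genes lie near 0 throughout (-0.016, 0.007 and -0.023).

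Markers of other cell types varied between the embryos, and no summed list stood in the order most common among ribosomal protein genes. The erythroid sum had GCE/+ replicate 1 highest and replicate 2 lowest, but GCE/GCE replicate 1 above replicate 2. Erythroid markers, of which 8 of 12 were tested and 0 called, summed to 513.6 and 175.6 CPM in GCE/+ and to 343.8 and 314.3 CPM in GCE/GCE cells, most of it the embryonic globin *Hbb-y*, and *Hba-a1* was at 0 in every library. Macrophage markers summed to 346.1 and 353.6 CPM in GCE/+ and to 216.3 and 153.2 CPM in GCE/GCE cells, and 9 of the 12 in the files were called, all of them lower in GCE/GCE cells. Cartilage markers summed to 532 and 850.2 CPM in GCE/+ and to 1191 and 1292 CPM in GCE/GCE cells, and 2 of 6, *Sox9* and *Col9a1*, were called, both higher. The paper reports more expression of cartilage genes in *Osr1* deficient cells, *Sox9* also by RT-qPCR, and a higher chondrogenic capacity in culture. Whether the cartilage values here come from such cells or from other cells in the sort was not tested.

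Endothelial markers summed to between 72.7 and 104.3 CPM and myogenic markers to between 90.49 and 116.7 CPM, with 0 of 6 and 0 of 7 called. Of the 7 connective tissue markers 0 were called, while the log2 fold change was negative in 6 and positive in 1. Their sum was lower in both GCE/GCE embryos (14210 and 12380 CPM) than in either GCE/+ embryo (16510 and 14970 CPM). The most negative value was that of *Dcn*, -0.68 (SE 0.17), with an adjusted p of 0.131 in edgeR's quasi-likelihood test. From the same RNA-seq libraries, tested with DESeq2, the paper reports *Dcn* as downregulated in *Osr1* deficient cells. It also reports less *Dcn* and *Col3a1* in such cells at E13.5 by RT-qPCR, in embryos other than those sequenced. In bulk samples fewer cells of a type and less RNA per cell cannot be told apart. The part of these markers in the differences between embryos was not tested.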

How the data were processed

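RNA-seq of GFP+ cells from 2 GCE/+ and 2 GCE/GCE embryos was analysed. The authors deposited raw counts per gene symbol, and their processing notes name TopHat2, HTSeq and mm9. Counts were filtered with filterByExpr, normalized by TMM and tested with edgeR 4.0.16 (R 4.3.3; quasi-likelihood, two-sided, Benjamini-Hochberg adjustment over 15645 genes, threshold 0.1). A pseudocount of 0.5 CPM was used for log2 differences between embryos. DESeq2 1.42.0, other normalizations and filters, a replicate block, a length offset and leaving out each library were alternatives. Transcript lengths were taken from GENCODE M21 (GRCm38) for 97.93% of symbols. No coordinates were converted from mm9. Total counts of 52121596 to 61402140 made 3 counts equal to 0.0489 to 0.0576 CPM, which covers counting error only. Genes named are the extremes at 10 CPM or more, the highest, the stalk, paralogue, X-linked and extra-ribosomal genes, and up to 3 of each list. The members and lists were chosen with earlier results of these data known.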

Additional observations from a re-analysis of the deposited data

How the results depend on the processing

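The count of ribosomal protein genes called was 0 under each of the 14 alternatives, and the lowest adjusted p among them ran from 0.135 to 0.965 over these. Their median log2 fold change ran from 0.007 (upper quartile) to 0.073 (length offset with replicate block) among alternatives with all libraries, and from -0.11 to 0.16 when 1 library was left out. The log2 ratio of summed shares, 0.016 as reported, was 0.030 over library sizes after TMM and 0.033 with counts divided by transcript length, and ran from -0.116 to 0.162 with 1 library left out. Without GCE/+ replicate 1, 15 of 81 genes had an unadjusted p under 0.05, without GCE/+ replicate 2 there were 3, and without GCE/GCE replicate 2 there were 2. Whether replicate numbers pair the embryos was not settled. The correlation of same-numbered deviations was -0.008 over 9764 genes of at least 10 CPM. It was -0.873 over the 76 ribosomal protein genes among them, where same-numbered embryos deviated in opposite directions. These 76 genes moved together within shared libraries and are not independent values. With 2 embryos a genotype, neither correlation can decide which embryos shared a litter, a sort or a batch. With the number as a replicate block the median was 0.036 and 0 genes were called. Of 448 values of 32 named genes under alternatives, 69 had the other sign and none was called. Calls over all genes went from 285 to 127 without a filter, to 508 with DESeq2, to 961 without GCE/+ replicate 2 and to 748 without GCE/GCE replicate 1. With 2 embryos a group, changes under 1.25-fold were beyond the precision for most genes.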
